A study of Mus musculus with 3 samples.

Results

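The glucocorticoid receptor gene *Nr3c1* and 3 of its best known target genes, *Tsc22d3*, *Fkbp5* and *Per1*, were followed in single bone marrow derived macrophages (BMDMs) treated with lipoproteins of *Borrelia burgdorferi* (*Bb*LP), the Lyme disease spirochete. They were picked by gene symbol, with earlier results of these data known, and are 4 of the 32285 genes in the count tables. The question was whether the receptor moved together with its targets. After 4 hours of *Bb*LP it did not do so for the targets as a group: the *Nr3c1* level was 2.67-fold and the *Fkbp5* level 3.13-fold that of untreated cells, while *Tsc22d3* was 2.18-fold lower and *Per1* 12.3-fold lower. After 1 hour none of the 4 genes differed from untreated cells by 1.5 times.

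The BMDMs were grown from marrow of female C3H/HeN mice aged 6 to 8 weeks, differentiated in medium with L929 cell conditioned medium. Purified *Bb*LP was given at 1 µg/mL and the cells were taken 1 hour (LP1) or 4 hours (LP4) later, and Ctrl cells were left untreated, with PBS alone. Cells of 3 wells were pooled into 1 droplet-based 3′ RNA library per condition, so there is 1 library per group, no spread between cultures could be measured, and no test between conditions was made. Ctrl cells were collected at 4 hours, so that LP1 and Ctrl also differ in the time of collection. The culture and treatment methods name no added glucocorticoid, but the cells were grown and treated in medium with fetal bovine serum. The hormone itself was not measured, in the serum or in the cultures. All groups were grown in the same culture medium, and whether Ctrl cells had it renewed when PBS was given is not stated.

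The glucocorticoid receptor is a nuclear receptor that waits in the cytoplasm in a complex with heat shock proteins and co-chaperones. When cortisol or corticosterone binds, the receptor enters the nucleus, switches on genes near glucocorticoid response elements and restrains NF-κB and AP-1 at inflammatory genes, which is why glucocorticoids calm macrophages. *Tsc22d3* encodes GILZ, a leucine zipper protein that restrains NF-κB and AP-1. *Fkbp5* encodes FKBP51, a co-chaperone that lowers the receptor's affinity for hormone and so forms a feedback loop, and *Per1* encodes a core repressor of the circadian clock that is also induced through cAMP and CREB.

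RefSeq start sites of GRCm38.p6 gave 1 promoter window for *Fkbp5*, 2 for *Per1* and 3 for *Tsc22d3*, each of 250 bases before and 50 after the start. The 250 bases before the start of *Fkbp5* and before both starts of *Per1* are shown, since these 2 targets went in opposite directions at 4 hours, with motif matches in capitals:
*Fkbp5*, chr17:28486150-28486399, minus strand: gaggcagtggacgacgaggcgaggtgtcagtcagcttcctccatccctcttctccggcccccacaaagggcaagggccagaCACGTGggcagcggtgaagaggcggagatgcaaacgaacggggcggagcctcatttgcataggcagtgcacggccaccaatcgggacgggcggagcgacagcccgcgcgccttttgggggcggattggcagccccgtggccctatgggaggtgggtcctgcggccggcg
*Per1*, chr11:69098699-69098948, plus strand: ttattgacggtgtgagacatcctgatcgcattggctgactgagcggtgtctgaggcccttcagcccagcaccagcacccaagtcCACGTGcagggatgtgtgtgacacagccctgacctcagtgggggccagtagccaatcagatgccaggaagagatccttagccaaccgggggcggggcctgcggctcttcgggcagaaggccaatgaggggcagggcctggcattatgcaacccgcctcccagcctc
*Per1*, chr11:69099902-69100151, plus strand: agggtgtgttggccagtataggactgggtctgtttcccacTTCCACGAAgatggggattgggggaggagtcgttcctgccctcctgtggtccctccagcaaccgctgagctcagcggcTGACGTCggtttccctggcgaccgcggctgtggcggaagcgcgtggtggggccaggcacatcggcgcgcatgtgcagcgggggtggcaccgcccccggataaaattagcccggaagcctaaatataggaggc
In GENCODE vM21 all 3 stretches lie within longer transcripts of the same gene. None of the bases shown for *Fkbp5* and the second *Per1* start, and 1 base of the first *Per1* stretch, are annotated as exonic.

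Both strands of the 6 windows were searched for 8 motifs. The full glucocorticoid response element, which is AGAACA and its reverse complement with 3 bases between them, was in none of them and in 0.00913% of all 32851 windows of that length. An exact match is so rare that its absence from 6 windows says little about these genes. Inexact matches and sequence outside the windows were not searched. A single AGAACA, which 19% of all windows hold, was found once, in reverse, upstream of the *Tsc22d3* start near the 5′ end of the gene (window chrX:140600473-140600772). The *Fkbp5* window and the first *Per1* window each held the E-box CACGTG, the site that clock proteins bind, at bases 82 to 87 and 85 to 90; 7.15% of all windows hold it. The second *Per1* window held the cAMP response element core TGACGTC at bases 119 to 125 (3.21% of all windows) and the STAT-type motif TTCNNNGAA at bases 41 to 49 (8.3%). That STAT-type motif also occurred in 1 *Tsc22d3* window, at bases 44 to 52. The cAMP element TGACGTCA (1.79% of all windows), the forkhead motif GTAAACA (3.65%) and the interferon response motif of GAAA, 2 bases and GAAA (3.44%) were in none of the 6. AGAACA is contained in the full glucocorticoid element, and the core in the full cAMP element. *Fkbp5* and *Per1* thus shared the E-box and, in these windows, no other of the motifs searched.

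*Nr3c1* (ENSMUSG00000024431) lies on the minus strand of chromosome 18 at 39410545 to 39519421, and *Tsc22d3* (ENSMUSG00000031431) on the minus strand of chromosome X at 140539528 to 140600659. *Fkbp5* (ENSMUSG00000024222) lies on the minus strand of chromosome 17 at 28399094 to 28517527, and *Per1* (ENSMUSG00000020893) on the plus strand of chromosome 11 at 69095217 to 69109960. These are GENCODE vM21 positions on GRCm38 (mm10), and all 4 are protein-coding. Of the other annotated genes, 4 overlap *Fkbp5*, 2 of them on its strand, and none overlaps the remaining 3 members. The libraries were made with a 3′ kit, so the level of one gene was not compared with that of another.

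The kept cells were 6071 for Ctrl, 5065 for LP1 and 4670 for LP4, with 35688939, 52475723 and 61402275 UMIs (unique molecular identifiers, 1 per captured transcript). A Ctrl cell held a median of 5133 UMIs, an LP1 cell 9343 and an LP4 cell 11784, so levels are given as UMIs per 1000000 UMIs of the library (CPM). The median mitochondrial share was 1.97%, 2.84% and 3.17%, in the same order. The 10 macrophage markers summed to between 11809 and 12331 CPM, and none was at 0. Neutrophil markers summed to between 315 and 607 CPM and dendritic cell markers to between 152 and 155 CPM, with no gene of either list at 0 and 3 of 12 and 5 of 11 genes under 1 CPM. Markers of T cells, B cells, NK cells, mast cells, stromal cells and erythroid cells each summed to less than 20 CPM in every library. Stromal markers, of which none of 6 was at 0, went from 4.29 CPM in Ctrl to 5.85 CPM in LP1 and 19.7 CPM in LP4, and NK cell markers, of which 2 to 3 of 5 were at 0, from 0.729 to 0.724 and 9.35 CPM. In LP4, 4 of the 5 NK cell markers were under 1 CPM, and the higher sum was mainly that of *Klrk1*. Between 4 and 10 barcode sequences were shared by any 2 libraries.

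*Nr3c1*, the receptor, stood at 101 CPM in Ctrl on 3616 UMIs, at 106 CPM in LP1 on 5587 UMIs and at 271 CPM in LP4 on 16617 UMIs. The first 2 libraries were close together and LP4 stood apart. The log2 ratio of LP4 to Ctrl was 1.42, with an exact conditional 95% interval of 1.37 to 1.47, and that of LP4 to LP1 was 1.35 (1.30 to 1.39). LP1 over Ctrl was 0.07 (0.01 to 0.13), a difference of 1.05-fold. All such intervals cover counting error only, not the spread between cultures. They also take UMIs as independent of each other. Counts per cell varied more than that, with a variance over the mean for *Nr3c1* of 1.32, 1.58 and 2.82 in Ctrl, LP1 and LP4. The intervals may thus be too narrow, which matters most where a bound lies close to 0. Counted per cell rather than per UMI, a Ctrl cell held 0.596 *Nr3c1* UMIs on average, an LP1 cell 1.10 and an LP4 cell 3.56, and the highest count in a cell was 8, 13 and 27. The paper reports *Nr3c1* as raised in LP4 from these same libraries. It also reports more NR3C1 protein in LP4 than in Ctrl lysates, from mass spectrometry of 2 biological replicates per group.

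*Fkbp5*, the receptor's co-chaperone, was the target that rose with it. Its level was 11.8 CPM in Ctrl on 421 UMIs, 13.3 CPM in LP1 on 700 UMIs and 36.9 CPM in LP4 on 2265 UMIs. LP4 was the only library set apart, with a log2 ratio to Ctrl of 1.64 (1.49 to 1.80) and to LP1 of 1.47 (1.34 to 1.59). Per cell the mean was 0.0693, 0.138 and 0.485 UMIs.

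*Per1*, the clock repressor, showed the largest difference of the 4 genes. Its level was 22.0 CPM in Ctrl on 786 UMIs, 23.2 CPM in LP1 on 1215 UMIs and 1.79 CPM in LP4 on 110 UMIs. The log2 ratio was -3.62 (-3.92 to -3.33) for LP4 over Ctrl and -3.69 (-3.99 to -3.41) for LP4 over LP1, and 99.5% of the 13413 genes compared had a higher LP4 to Ctrl ratio. *Per1* was also lower in LP4 when counted per cell, with means of 0.129, 0.240 and 0.0236 UMIs in Ctrl, LP1 and LP4.

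*Tsc22d3*, which encodes GILZ, fell less than *Per1*. Its level was 8.57 CPM in Ctrl on 306 UMIs, 8.42 CPM in LP1 on 442 UMIs and 3.94 CPM in LP4 on 242 UMIs. The log2 ratio of LP4 to Ctrl was -1.12 (-1.37 to -0.87), and that of LP4 to LP1 was -1.10 (-1.33 to -0.87). Here the scale mattered: a Ctrl cell held 0.0504 UMIs on average, an LP1 cell 0.0873 and an LP4 cell 0.0518, so that LP4 cells held as many *Tsc22d3* UMIs as Ctrl cells within a total that was larger. In the plot of CPM by library the 2 genes that rose and the 2 that fell separate at LP4 and not at LP1.

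**Figure D1:**
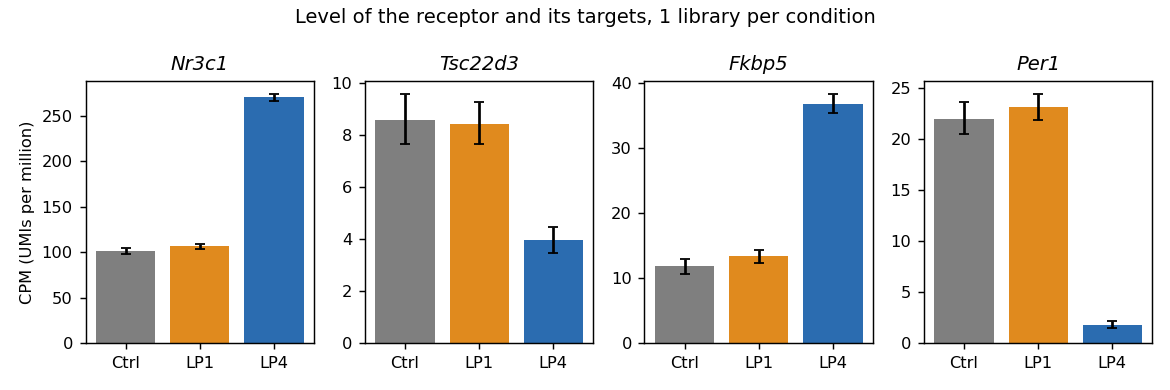
Bars give the CPM (UMIs per 1000000 UMIs, from 0, own axis for each gene) of *Nr3c1*, *Tsc22d3*, *Fkbp5* and *Per1* in the Ctrl, LP1 and LP4 libraries, with exact Poisson 95% intervals. Ctrl and LP1 are alike for each gene, and LP4 is higher for *Nr3c1* (271 CPM) and *Fkbp5* (36.9 CPM) and lower for *Tsc22d3* (3.94 CPM) and *Per1* (1.79 CPM).

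A gene was called as having risen or fallen where it differed by at least 1.5 times and its interval left out 0, among 13413 genes with at least 50 UMIs over the 3 libraries. Between LP1 and Ctrl, 0 of the 4 members were called, where 4.54% of all genes rose and 6.11% fell, 10.6% in all. Between LP4 and Ctrl 2 of the 4 rose, beside 19.1% of all genes, and 2 fell, beside 27.9%. Between LP4 and LP1 the same 2 rose, beside 16.9% of all genes, and the same 2 fell, beside 23.3%, with 40.2% of all genes called in either direction. With 47.0% of all genes called one way or the other at 4 hours, being called is not itself unusual. The ratios of *Nr3c1* and *Fkbp5* to Ctrl lay above those of 93.8% and 95.1% of genes, and the median over all genes was -0.15.

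Shares of cells with at least 1 UMI were set on an equal depth by drawing 2000 UMIs from each cell, and 122 cells of Ctrl, 13 of LP1 and 45 of LP4 were too shallow for this. *Nr3c1* was then seen in 18.6% of cells in Ctrl (exact binomial 95% interval 17.6 to 19.6), against 18.4% in LP1 (17.3 to 19.5) and 40.0% in LP4 (38.6 to 41.5). *Fkbp5* was seen in 2.07% (1.72 to 2.46), 2.40% (1.99 to 2.86) and 6.75% (6.04 to 7.51). *Per1* was seen in 4.54% (4.02 to 5.10), 4.75% (4.18 to 5.37) and 0.368% (0.214 to 0.588), the last being 17 of 4625 cells. *Tsc22d3* was seen in 1.55% (1.25 to 1.89), 1.60% (1.28 to 1.99) and 0.649% (0.438 to 0.925). LP4 thus stood apart in the direction of the CPM for each gene, while the intervals of Ctrl and LP1 overlapped for all 4.

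Without thinning, the same cells gave 41.7%, 59.1% and 88.4% for *Nr3c1* and 5.97%, 11.3% and 32.2% for *Fkbp5* in Ctrl, LP1 and LP4. They gave 12.2%, 20.5% and 2.29% for *Per1* and 4.56%, 6.83% and 4.13% for *Tsc22d3*. These unthinned shares follow depth as well as level, and the *Tsc22d3* share was higher in LP1 than in Ctrl where the CPM was not, so no order was read from them. No cell type in these cultures is known to lack the 4 genes. In the neutrophil-like cells, taken for reference, *Per1* after thinning was seen in 0 of 21 cells from Ctrl, 0 of 21 from LP1 and 1 of 28 from LP4. *Nr3c1* was seen there in 14.3%, 42.9% and 28.6%, *Fkbp5* in 14.3%, 9.52% and 14.3%, and *Tsc22d3* in 1, 0 and 0 cells. The median depth was 3947, 6261 and 9261.5 UMIs in these cells and 5194, 9353 and 11838 UMIs in all. A count of 0 among 21 cells has an exact upper limit of 16.1%.

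**Figure D2:**
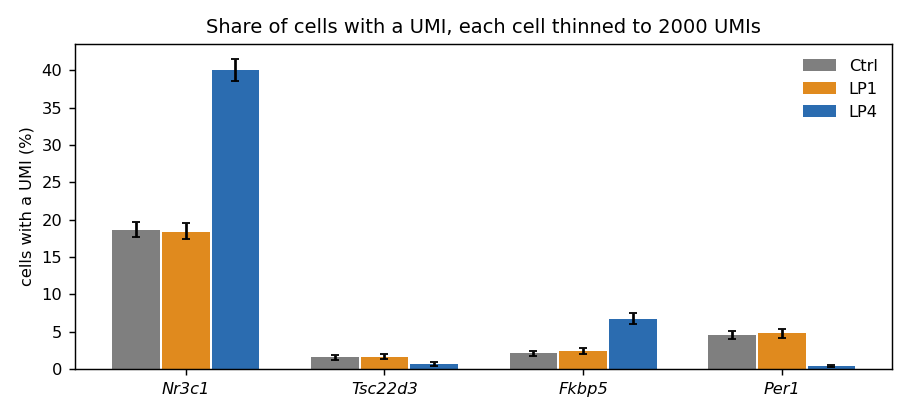
Bars give the percentage of cells with at least 1 UMI of each gene after every cell was thinned to 2000 UMIs, by library, with exact binomial 95% intervals. LP4 is the highest library for *Nr3c1* (40.0%) and *Fkbp5* (6.75%) and the lowest for *Tsc22d3* (0.649%) and *Per1* (0.368%).

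To see whether the receptor and its targets moved in the same kinds of cells, the cells were clustered without the 4 genes and after centring each gene within its library. Of 10 clusters, 6 held at least 50 cells in every library and were compared. A to D were macrophage-like: A with *Apoe*, *Ms4a6b* and *Egr3* among its leading genes, B with *Ccnd1* and *Mcm3*, C with *Fabp7*, *Fabp4* and *Prdx1*, and D with *Ctsk*, *Mmp9* and *Atp6v0d2*. E was cycling-like with *Top2a* and *Ccna2*, and F dendritic cell-like with *Cd74* and *H2-Aa*. Cells of 1 library are not replicates, so the values that follow are sums over the cells of a cluster in a library.

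*Nr3c1* was above its Ctrl level in LP4 in 6 of 6 clusters, with log2 ratios from 1.12 in the cycling-like cluster E to 1.504 in the macrophage-like cluster A. In Ctrl its levels were close, from 91.1 CPM in D to 116 CPM in F. In LP4 they ran from 217 CPM in E and 229 CPM in D to 314 CPM in A and 321 CPM in F. The intervals of A (305 to 323) and F (284 to 362) overlapped, as did those of D (217 to 240) and E (205 to 231), while A and D did not.

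*Fkbp5* was also higher in LP4 in 6 of 6 clusters, with log2 ratios from 0.91 in E to 2.90 in D. Unlike the receptor, it differed widely between clusters before treatment. In Ctrl the cycling-like cluster E stood at 30.8 CPM (25.3 to 37.2) and B at 16.4 CPM (14.2 to 18.8), against 6.99 CPM in C, 4.56 CPM in F, 4.47 CPM in D and 3.54 CPM in A, the last 4 on 2 to 50 UMIs. In LP4 E was again the highest at 58.1 CPM (51.6 to 65.1), and A, where *Nr3c1* was among the highest, was the lowest of the macrophage-like clusters at 19.9 CPM (17.6 to 22.4). In the neutrophil-like cells, too few to be compared, *Fkbp5* stood at 66.9 CPM in Ctrl, 106 CPM in LP1 and 108 CPM in LP4, on 7, 15 and 26 UMIs.

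*Per1* was lower in LP4 in 6 of 6 clusters, with log2 ratios from -4.73 in A to -3.21 in B. Its Ctrl levels lay between 17.7 CPM in E and 29.7 CPM in F, and its LP4 levels between 0.984 CPM in A and 2.35 CPM in F. These 2 LP4 levels rest on 14 UMIs (0.538 to 1.65 CPM) and 2 UMIs (0.284 to 8.47 CPM). The highest LP4 level was thus below the lowest Ctrl level over the 6 clusters.

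*Tsc22d3* was lower in LP4 in the 5 clusters A to E, with log2 ratios from -1.69 (-2.18 to -1.22) in A to -0.85 in B. Its Ctrl level was highest in A at 13.4 CPM (11.0 to 16.2) and D at 12.6 CPM (9.30 to 16.7), and C stood at 4.20 CPM (2.83 to 5.99). The dendritic cell-like cluster F went the other way, at 1.63, but on 1 UMI in Ctrl and 6 UMIs in LP4, with an interval of -1.42 to 7.15. At 1 hour 22 of the 24 ratios to Ctrl in the clusters had intervals that held 0. The others were *Nr3c1* in A at 0.14 (0.01 to 0.26) and *Per1* in B at 0.23 (0.00 to 0.45).

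**Figure D3:**
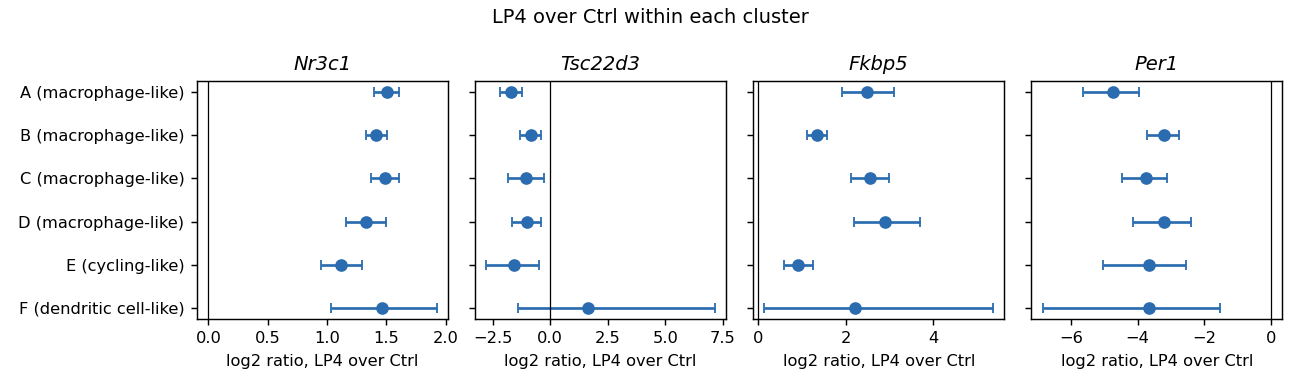
Points give the log2 ratio of CPM, LP4 over Ctrl, of each gene in clusters A to F, with exact 95% intervals and an axis of its own for each gene. All 6 points lie above 0 for *Nr3c1* and *Fkbp5* and below 0 for *Per1*, and for *Tsc22d3* the dendritic cell-like cluster F (1.63, 1 and 6 UMIs) is the exception.

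**Figure D4:**
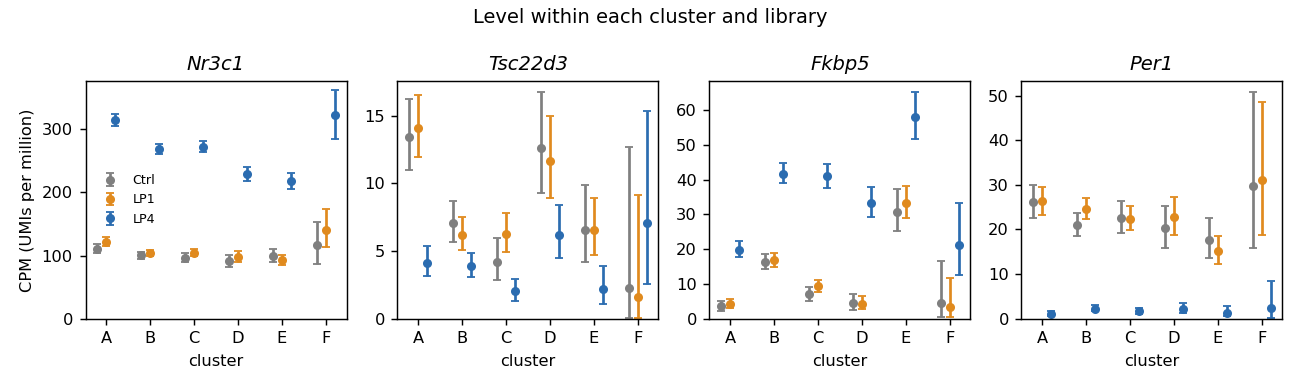
Points give the CPM of each gene in clusters A to F, by library, with exact Poisson 95% intervals and an axis of its own for each gene. *Fkbp5* was highest in the cycling-like cluster E in each library (30.8 CPM in Ctrl and 58.1 CPM in LP4), and *Nr3c1* in LP4 was lowest there (217 CPM).

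Over the 18 sums of 6 clusters in 3 libraries, *Nr3c1* and *Fkbp5* had a Pearson's r of 0.56 on the log2(CPM + 1) scale. With the mean of each library taken away it was -0.56. For *Nr3c1* and *Per1* the values were -0.92 and, within libraries, 0.48. For *Nr3c1* and *Tsc22d3* they were -0.43 and -0.21. The points share libraries, depth and cells of the same cultures, so these are descriptions with no test. Cluster F counts as much as the larger clusters, though its *Fkbp5* rests on 2 UMIs in Ctrl and 2 in LP1. Its *Tsc22d3* rests on 1 UMI in each of these libraries. In LP4, *Per1* rests on 2 UMIs in F and on at most 45 UMIs in any of the 6 clusters. The receptor and *Fkbp5* rose in the same library, while in LP4 the clusters with the most *Nr3c1* were not those with the most *Fkbp5*.

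In single cells, no target was detectably higher where an *Nr3c1* UMI was seen. After thinning to 2000 UMIs, *Fkbp5* stood at 35.9 CPM in LP4 cells with an *Nr3c1* UMI and at 34.6 CPM in those without, a log2 ratio of 0.05 (-0.28 to 0.38). *Per1* and *Tsc22d3* gave -0.29 (-2.01 to 1.27) and 0.67 (-0.40 to 1.75) there, on 17 and 33 UMIs in all. In Ctrl, *Fkbp5* was lower in cells with an *Nr3c1* UMI, 6.32 CPM on 14 UMIs against 11.8 CPM on 114 UMIs, with a log2 ratio of -0.90 (-1.81 to -0.09). The intervals of the other 8 of the 9 ratios held 0. A cell thinned to 2000 UMIs without an *Nr3c1* UMI may still express it, so such intervals bound only what this depth can show.

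Depth and mitochondrial share moved with some members. *Fkbp5* was higher in the deeper cells of each library, by log2 ratios of 0.93, 0.66 and 0.47 between cells above and below the median of Ctrl, LP1 and LP4, and the cycling-like cluster E held the deepest cells of the 6 clusters. In cells of 5000 to 12000 UMIs in every library, *Fkbp5* stood at 13.7 CPM in Ctrl, 10.5 CPM in LP1 and 29.9 CPM in LP4. LP4 over Ctrl was then 1.12 (0.92 to 1.33), and LP1 over Ctrl turned to -0.39 (-0.63 to -0.15), so the slight excess of *Fkbp5* at 1 hour was not seen in this range. Depth within it was closer but not equal, with medians of 6831, 8245 and 9068.5 UMIs. Over whole libraries the medians were 5133, 9343 and 11784 UMIs. The range thus took mostly cells above the median of Ctrl and below that of LP4. *Fkbp5* followed depth within each library, so its ratios here may reflect this choice of cells, which was not tested. Over the 6 clusters its LP1 to Ctrl log2 ratio was above 0 in 4 and below 0 in 2. *Tsc22d3* was lower in cells with a mitochondrial share above the median, with log2 ratios of -0.40, -0.47 and -0.75 in the 3 libraries. *Fkbp5* was higher in such cells of Ctrl, at 0.33 (0.04 to 0.61), and of LP4, at 0.39 (0.27 to 0.52). In LP1 it was at 0.15 (-0.07 to 0.37). *Nr3c1* was at -0.14 (-0.23 to -0.04) in Ctrl, -0.07 (-0.14 to 0.01) in LP1 and -0.18 (-0.23 to -0.14) in LP4. The part of depth and mitochondrial share in the differences between libraries was not tested beyond this. Over the macrophage-like and cycling-like clusters alone, which leave out the stromal-like, neutrophil-like and dendritic cell-like cells, the LP4 to Ctrl log2 ratios were 1.42 for *Nr3c1*, 1.65 for *Fkbp5*, -1.17 for *Tsc22d3* and -3.63 for *Per1*. The LP4 barcodes removed for over 5% mitochondrial UMIs, 273 in number, gave 203 CPM for *Nr3c1*, 40.5 for *Fkbp5*, 3.62 for *Tsc22d3* and 1.51 for *Per1*.

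The other genes that glucocorticoids are known to induce were as split as the 3 targets. Of 24 such genes 20 were measured, and from Ctrl to LP4 8 rose, 6 fell and 6 did not pass. Their median log2 ratio was 0.18, beside -0.15 for all genes. For this list and each list below, 19.1% of all genes rose and 27.9% fell at 4 hours under the all-UMI scaling. The shares at 1 hour were 4.54% and 6.11%. A mix of calls in both directions is thus not itself unusual. Under TMM and median-of-ratios scaling, which set libraries on the typical gene rather than on all UMIs and raise every LP4 to Ctrl log2 ratio by 0.17 and 0.21, *Glul* rose as well. The largest rise was that of *Mt2*, a metallothionein that binds zinc, from 57.3 CPM in Ctrl and 37.4 CPM in LP1 to 538 CPM in LP4 (log2 ratio 3.23). *Ddit4*, an inhibitor of mTORC1, rose by 3.08, *Cebpd*, a C/EBP transcription factor, by 2.32, *Zfp36*, which encodes the mRNA-destabilizing protein TTP, by 2.09 and *Il1rn*, the IL-1 receptor antagonist, by 1.88. The largest fall was that of *Per2*, the partner of *Per1*, from 5.30 CPM in Ctrl and 3.13 CPM in LP1 to 0.603 CPM in LP4 (-3.14).

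Also lower were *Rgs2*, a regulator of G protein signaling (-3.03), *Dusp1*, a phosphatase of p38 and JNK (-1.24), *Klf9*, a Krüppel-like repressor (-1.06), *Cd163*, the hemoglobin scavenger receptor (-1.67), and *Mertk*, a receptor for apoptotic cells (-0.90). *Sgk1*, a kinase of ion transport, was at -0.27 and did not pass. At 1 hour 4 of the 20 rose (*Dusp1*, *Zfp36*, *Cebpd* and *Nfkbia*) and 4 fell (*Per2*, *Mertk*, *Mt1* and *Mt2*), of which *Mt2* did not pass under the TMM and median-of-ratios scalings. *Dusp1* was highest in LP1 at 598 CPM, against 391 CPM in Ctrl and 165 CPM in LP4.

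The genes of the receptor's chaperone complex mostly did not pass. Of 12 chaperone genes, 0 rose and 2 fell at 4 hours, *Cdc37* (-0.74) and *Hsp90ab1* (-0.62), with a median of -0.16. Under TMM and median-of-ratios scaling neither passed, *Ptges3* (p23) rose and the median was 0.01 and 0.05. *Fkbp4*, which encodes FKBP52, the counterpart that favors hormone binding, was at 35.2 CPM in Ctrl, 36.6 CPM in LP1 and 25.8 CPM in LP4 (-0.45), and did not pass. *Fkbp5* was the 1 gene to rise among 13 measured FK506-binding protein genes, 0 fell and the median was -0.24, though *Fkbp9* also rose under both other scalings. The plot of the gene lists shows *Fkbp5* alone to the right of its family.

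Among 14 coregulators, *Hdac2* (1.08) and *Carm1* (0.69) rose and *Smarca4* (-0.64) was among those that fell, with a median of -0.06 that was above 0 under the other 2 scalings, where *Smarca4* no longer passed. Of 6 measured genes of glucocorticoid metabolism and transport, *Abcb1a*, a drug and steroid efflux pump, rose (1.31), and *Nr3c2*, the mineralocorticoid receptor (-1.35), and *Srd5a1* (-0.70) fell. Under both other scalings *Srd5a1* no longer passed. *Hsd11b1*, the enzyme that regenerates active hormone, was at 1.15, 1.77 and 1.53 CPM in Ctrl, LP1 and LP4, and passed as a rise at 4 hours under median-of-ratios scaling alone. At 1 hour *Hsd11b1* passed as a rise and *Abcb1a* as a fall under every scaling.

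Most of the other nuclear receptor genes did not rise with *Nr3c1*. Of 26 measured, 3 rose at 4 hours and 16 fell, with a median of -0.89. The other 2 that rose were *Nr6a1* (0.89) and *Pgr* (2.99, on 6 UMIs in Ctrl and 82 in LP4), and the largest fall was that of *Nr4a1* (-5.38). *Pparg*, the lipid sensor of macrophages, fell by 1.22 on the log2 scale, *Rxra* by 1.19 and *Nr1h3*, the liver X receptor, by 0.80. *Nr1h2* passed as a rise under median-of-ratios scaling, *Rara* passed as a fall under the all-UMI scaling alone, and *Nr3c1*, *Nr6a1* and *Pgr* passed under all 3 scalings.

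*Per1* fell together with some of the other clock genes and most of the other CREB-induced genes. Of 20 measured clock genes, *Per1* among them, 9 fell and 1, *Cry1*, rose (0.60), with a median of -0.54, and 2 and 3 rose under TMM and median-of-ratios scaling. After *Per1* and *Per2* the largest falls were those of *Dbp* (-2.87), *Nr1d1* (-2.70), *Npas2* (-2.46), *Bhlhe40* (-2.17) and *Per3* (-1.94). The activators differed less: *Clock* was at -0.05 and *Arntl* at -0.57, and neither passed. Of 10 genes known to be induced through CREB, *Per1* included, 7 fell, 0 rose and the median was -3.86, with *Sik1*, a kinase that switches CREB signaling off, lowest at -5.90 and *Nr4a1*, *Fos* (-4.86), *Areg* (-4.43) and *Nr4a2* (-4.10) after it. *Crem* was highest at 0.49 and passed under the other 2 scalings. *Pde4b* and *Pde4d* did not pass under any scaling. The paper also reports lower *Egr1*, *Egr2* and *Fosb* in LP4, which are not on this list. At 1 hour 1 of these 10, *Areg*, rose and 2, *Sik1* and *Fos*, fell, the fall of *Fos* under the all-UMI scaling alone.

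*Tsc22d3* is also a FOXO target. Of 15 measured FOXO-induced genes, *Tsc22d3* included, 4 rose and 5 fell at 4 hours, beside 19.1% and 27.9% of all genes. Their median was -0.21, and 6 rose under median-of-ratios scaling. *Ddit4* (3.08) rose most and *Klf2*, a transcription factor of quiescence, fell most (-3.71), and *Foxo3* itself fell by 1.88 on the log2 scale. Of the 4 genes of the TSC22 family, *Tsc22d1* (-1.74) and *Tsc22d3* fell, *Tsc22d2* was at -0.35 and *Tsc22d4* at -0.21. In the set of p38 and TTP regulators, *Tsc22d3* and *Dusp1* fell, *Zfp36* rose, and *Mapk14* (-0.34) and *Mapkapk2* (0.35) did not pass, with a median over the 5 of -0.34.

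The inflammatory genes that the receptor is known to hold down rose in LP4 together with it. Of 15, 11 rose and 2 fell, with a median of 1.88. *Nos2*, the inducible nitric oxide synthase, went from 14 to 11689 UMIs (8.92), *Cxcl10* rose by 5.52 and *Il6* by 4.50, while *Tnf* (-1.58) and *Cxcl2* (-1.56) fell. The paper's single-cell list also has *Tnf* and *Cxcl2* higher in untreated cells than in LP4. Its RT-PCR, however, gave *Cxcl2* levels above those of PBS-treated BMDMs at every time tested. It also reports more CXCL2 protein in the supernatants of treated cells. At 1 hour 5 of the 15 had risen and 1, *Nos2*, had fallen, a fall that did not pass under either other scaling.

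**Figure D5:**
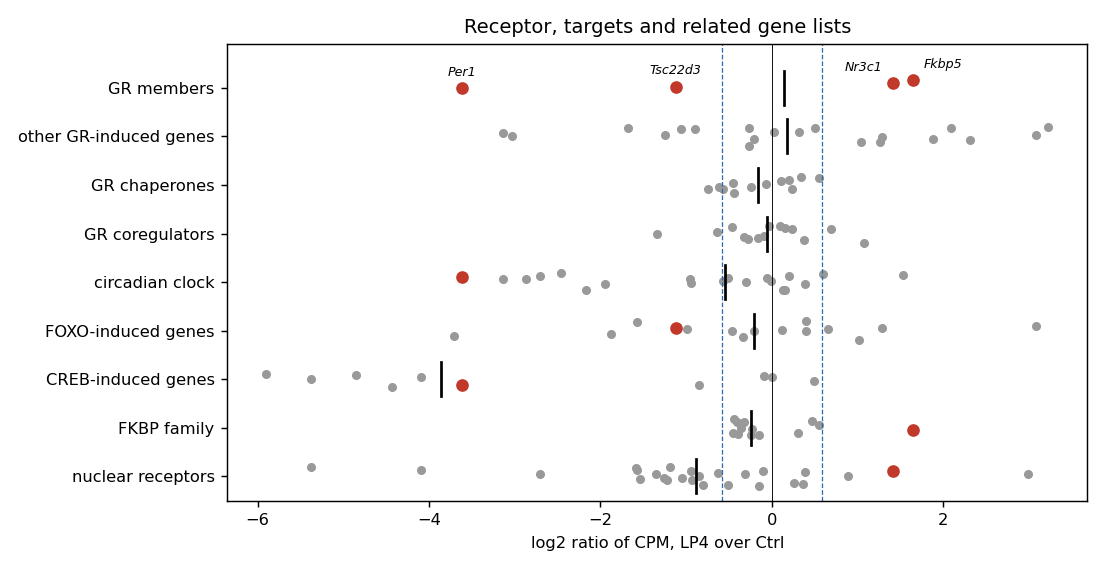
Each point is a measured gene's log2 ratio of CPM, LP4 over Ctrl, in 9 gene lists, with the list median as a black bar, the 4 members in red and the 1.5-fold limits as dashed lines. *Fkbp5* and *Nr3c1* lie to the right of the medians of their families (-0.24 and -0.89), and *Per1* lies among the low clock and CREB-induced genes.

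The genes whose levels over the 18 sums were most like those of each member were taken from 6014 genes (6015 for *Tsc22d3*) with at least 20 CPM in a library. They were picked for their high r, and the values with library means taken away come from the same 18 sums. Those values are thus no separate check, and a shared control of these genes was not tested. For *Nr3c1* they were the interferon-induced genes *Igtp* (r = 0.991), *Isg15* (0.987) and *Trim21* (0.986), and with library means taken away the values were 0.92, 0.90 and 0.85. For *Fkbp5* they were *Eif4g2* (0.940), *Cnot6* (0.932) and *Cgas* (0.930), with 0.88, 0.89 and 0.89 within libraries. For *Per1* they were *Snx29* (0.989), *Nrros* (0.981) and *Asap1* (0.979), with 0.63 for each within libraries. *Tsc22d3* had the weakest matches over the 18 sums, *Nbdy* (0.801), *Dym* (0.771) and *Urod* (0.746). Within libraries these were 0.76, 0.84 and 0.69, above those of the *Per1* matches. *Tsc22d3* was the member with the fewest UMIs in Ctrl and LP1. No gene was on the list of more than 1 member, and none of the members was on another's list.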

How the data were processed

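Single-cell RNA was measured in 1 library each of Ctrl, LP1 and LP4 BMDMs. The authors aligned reads to the mouse mm10 transcriptome with Cell Ranger (version 7.1.0 per the submitters' processing notes) and deposited raw UMI counts for each barcode and gene. Whether intronic reads were counted is not given in the sources used here.

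Kept barcodes exceeded 500 UMIs and 500 genes, with a mitochondrial share below 5%, and UMIs were summed per library and scaled to CPM. Exact Poisson, conditional binomial and binomial intervals at 95% were used for levels, ratios and shares. A doublet caller marked 0, 5 and 3 cells in Ctrl, LP1 and LP4, under 0.5% of cells, and so had not worked. For clustering, 2000 variable genes of 5240 eligible were used without the 4 members, with 30 components, 20 neighbors and a Leiden resolution of 0.5 (seed 20). Clusters were named from marker lists.

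The members and gene lists were chosen with earlier results of these data known. Named were the 4 members, the largest rise and fall of each list, list genes needed to state a count, and the 3 genes most like each member in Pearson's r of log2(CPM + 1). The list genes named beyond this rule were picked after their values were seen. Values of 1 list gene are not reported here. Alternatives covered scaling, cell filters, depth, thinning and resolution. The ratio and thinning steps were tested on simulated counts, which had no spread between cells or cultures. The other steps were not tested in this way. Tools were Python 3.11.15, scipy 1.17.1, scanpy 1.11.5, R 4.3.3 and edgeR 4.0.16 (TMM).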

Additional observations from a re-analysis of the deposited data

How the results depend on the processing

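No paired analysis was possible because each group has 1 library. Over 11 alternatives the log2 ratios of LP4 to Ctrl kept their direction for all 4 members, from 1.39 to 1.62 for *Nr3c1*, 1.12 to 1.85 for *Fkbp5*, -1.17 to -0.82 for *Tsc22d3* and -3.70 to -3.41 for *Per1*. Some of the 11 could hardly change a direction. Leaving out shared barcodes kept 6055 of 6071 cells in Ctrl, 5051 of 5065 in LP1 and 4660 of 4670 in LP4. Another used the scores of the doublet caller that had not worked. Under TMM and median-of-ratios scaling, *Nr3c1* was at 1.59 and 1.62 for LP4 over Ctrl, 1.44 and 1.48 for LP4 over LP1, and 0.14 and 0.15 for LP1 over Ctrl. These scalings shift the median of all LP4 to Ctrl ratios by 0.17 and 0.21, and those of LP4 to LP1 by 0.10 and 0.13. Genes higher in LP4 made up 40.7% of those past 1.5 times against Ctrl, 53.3% under TMM and 56.1% under median of ratios. For LP1 over Ctrl the shares were 41.1%, 52.3% and 52.9%, and for LP4 over LP1 42.0%, 49.9% and 52.6%. In cells of 5000 to 12000 UMIs *Nr3c1* was at 1.54 (LP4 over Ctrl) and 1.42 (LP4 over LP1). The median of the 3 targets, which is the *Tsc22d3* value, moved there from -1.12 to -0.82 for LP4 over Ctrl. At 1 hour, *Fkbp5* ranged from -0.39 to 0.25 and was below 0 in 1 of the 11 alternatives, and *Tsc22d3* ranged from -0.04 to 0.26. At a clustering resolution of 0.3 the highest *Tsc22d3* ratio over clusters, LP4 over Ctrl, was -0.98 in place of 1.63, where the dendritic cell-like cells had no cluster of their own. At 0.8 the *Tsc22d3* ratio was above 0 in 2 of 9 clusters. The dendritic cell-like cluster was at 1.67, and a macrophage-like cluster was at 0.69 (-0.92 to 3.01), on 3 UMIs in Ctrl. With at least 500 UMIs asked of a gene, the median of the other glucocorticoid-induced genes was 0.51, and with no minimum -0.09. The medians of all genes, LP4 over Ctrl, were -0.10 and -0.23 at these settings. Leaving out the cluster of few UMIs per cell, and leaving out the neutrophil-like and dendritic cell-like cells, were chosen after the data were seen. Small *Tsc22d3* counts limit what could be seen in single clusters.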

Other observations

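In cells of 5000 to 12000 UMIs, the *Nr3c1* level was 98.6 CPM in Ctrl, 107 CPM in LP1 and 286 CPM in LP4, and that of *Per1* was 20.9, 23.8 and 1.88 CPM. *Zbtb16*, a further glucocorticoid-induced gene, fell short of the 50 UMIs asked for, with 7, 19 and 0 UMIs in Ctrl, LP1 and LP4.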
